A study of Mus musculus with 9 samples.

Results

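The circadian clock genes described here were 10 genes of the core transcriptional clock: the activators Arntl and Clock, the nuclear receptor genes Nr1d1 and Nr1d2, the repressor genes Per1, Per2, Per3 and Cry1, and the output factors Dbp and Tef. They were chosen by name, and all 10 were present among the 53801 genes counted in each library. The libraries were bulk RNA-seq of CD11c-Ly6G-CD11b+CD45high cells, the monocyte/macrophage gate, from male C57BL/6J mice aged 9 weeks that carried no transgene or deletion by the labels. There were 3 groups of 3 libraries: blood after sham surgery, blood 5 days after stroke, and the ipsilesional brain hemisphere 5 days after stroke. Stroke was induced by closing for good, on the left side, the distal middle cerebral artery (dMCAO) and the common carotid artery. Each blood library came from 1 mouse and each brain library from a pool of 5 brains, so the spread between brain libraries is a spread between pools. The mice lived under a light/dark cycle. The hour at which blood and brain were collected, the day on which sham blood was drawn, and whether stroke blood and brain came from the same mice are not given in the sources used here.

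Mammalian clocks run in most cells, monocytes and macrophages included, as a feedback loop of transcription. The protein of Arntl (BMAL1) pairs with CLOCK and binds E-box sequences, which switches on Per and Cry genes, Nr1d1 and Nr1d2, and the output factors. PER and CRY proteins return to the nucleus and block that pair, and the REV-ERB proteins of Nr1d1 and Nr1d2 repress Arntl by competing with ROR receptors. DBP and TEF are activators of the PAR bZIP family that bind D-box sequences, where NFIL3 acts as a repressor. In a macrophage, REV-ERB proteins also repress enhancers of inflammatory genes, and Per1 is in addition an immediate early gene that stimuli induce within minutes.

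Promoter sequence is shown first for some clock genes, picked because a window held an E-box or a D-box, to let these elements be seen. RefSeq promoter windows of GRCm38.p6, from 250 bases before to 50 bases after a start site, were found for 9 of the 10 clock genes, and Per2 had no entry. Each window was searched on both strands for the E-box CACGTG, which is its own reverse complement, the E-prime box CACGTT, the D-box TTATGTAA, the REV-ERB/ROR core TAGGTCA and the cAMP response element TGACGTCA. No match printed here overlapped another. Positions count bases from the start site to the leftmost base of the match, and capitals mark the matches. Each stretch runs 5′ to 3′ on the gene's strand and ends before the nearest annotated exonic base. The stretches were taken at chr11:69098699-69098947 (plus strand) for Per1, chr10:85185065-85185304 (minus) for Cry1, chr15:81811164-81811413 (plus, the downstream of its windows) for Tef, chr4:151044666-151044915 (minus) for Per3, chr3:95882252-95882478 (minus) for Ciart and chr6:145865559-145865670 (minus) for Bhlhe41. The last 2 belong to further clock genes described below.
Per1: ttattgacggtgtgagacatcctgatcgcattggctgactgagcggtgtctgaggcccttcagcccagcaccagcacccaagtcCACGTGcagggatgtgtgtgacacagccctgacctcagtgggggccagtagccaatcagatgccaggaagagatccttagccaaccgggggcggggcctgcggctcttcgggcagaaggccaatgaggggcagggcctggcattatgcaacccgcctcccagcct
Cry1: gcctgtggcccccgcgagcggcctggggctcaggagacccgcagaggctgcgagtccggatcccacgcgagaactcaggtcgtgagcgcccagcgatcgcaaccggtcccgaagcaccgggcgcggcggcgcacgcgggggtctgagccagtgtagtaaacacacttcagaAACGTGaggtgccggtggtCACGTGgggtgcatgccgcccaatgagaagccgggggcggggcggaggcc
Tef: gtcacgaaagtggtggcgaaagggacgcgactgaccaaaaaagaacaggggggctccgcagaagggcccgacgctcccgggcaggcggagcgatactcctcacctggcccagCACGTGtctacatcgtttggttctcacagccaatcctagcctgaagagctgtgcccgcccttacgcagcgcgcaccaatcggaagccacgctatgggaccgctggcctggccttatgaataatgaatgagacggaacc
Per3: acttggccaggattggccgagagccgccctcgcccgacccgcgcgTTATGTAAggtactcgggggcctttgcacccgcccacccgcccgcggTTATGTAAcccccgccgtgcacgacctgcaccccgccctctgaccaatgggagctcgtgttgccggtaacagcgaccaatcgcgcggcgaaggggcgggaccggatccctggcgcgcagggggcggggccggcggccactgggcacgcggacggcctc
Ciart: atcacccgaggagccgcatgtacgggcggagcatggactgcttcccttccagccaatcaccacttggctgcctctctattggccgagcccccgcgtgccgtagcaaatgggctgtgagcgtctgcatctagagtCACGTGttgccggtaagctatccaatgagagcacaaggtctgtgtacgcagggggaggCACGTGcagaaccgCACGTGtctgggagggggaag
Bhlhe41: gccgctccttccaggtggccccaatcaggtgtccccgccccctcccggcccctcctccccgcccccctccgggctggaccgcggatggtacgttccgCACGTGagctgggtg
An E-box stood at -166 in Per1, whose other window held no match to any of the elements. In Cry1 it stood at -60 and in Tef at -138, where the other Tef window held 1 at -127. Cry1 also held an E-prime box at -79, on the other strand. Per3 held 2 D-boxes, at -205 and -158, where 0.0213% of all 32851 windows held 2 or more. Ciart held 3 E-boxes, at -116, -58 and -44, where 0.0883% of windows held 3 or more. Bhlhe41 held an E-box at -153. Of the remaining clock genes, Nr1d1 held an E-prime box at -28 and Arntl a REV-ERB/ROR core at 31 bases after the start. Over all windows the E-box was found in 7.15%, the E-prime box in 4.68%, the D-box in 0.938%, the REV-ERB/ROR core in 2.61% and the cAMP response element, which no window of the 9 genes held, in 1.79%. A match describes the letters of the window only.

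The main question of the study was how monocytes/macrophages differ between the brain and the blood after stroke. In that comparison Per2 was the clock gene that passed the test, at 6.97 times the stroke blood level, and the other 9 did not pass. The test was the quasi-likelihood test of edgeR on counts, and a gene was called at a Benjamini-Hochberg adjusted p below 0.05 over all genes tested. The share called was 1 of 10 clock genes, against 30.6% of all 13189 genes tested, 17.5% being higher and 13.1% lower in the brain. Per2 also met the rule of the study, which adds a log2 fold change beyond 1 in either direction, as 21% of all genes tested did. The median log2 fold change of the 10 was 0.49, beside 0.06 over all genes tested, and without brain replicate 1 it was -0.13, beside 0.05. With levels in CPM, counts per 1000000 counts of a library, compared library by library, Per2 and Per3 were higher in every brain library than in every stroke blood library, 2 of 10 genes where 31.9% of all genes tested were higher without overlap, and no clock gene was lower without overlap, where 17.3% of all genes were.

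**Figure D1:**
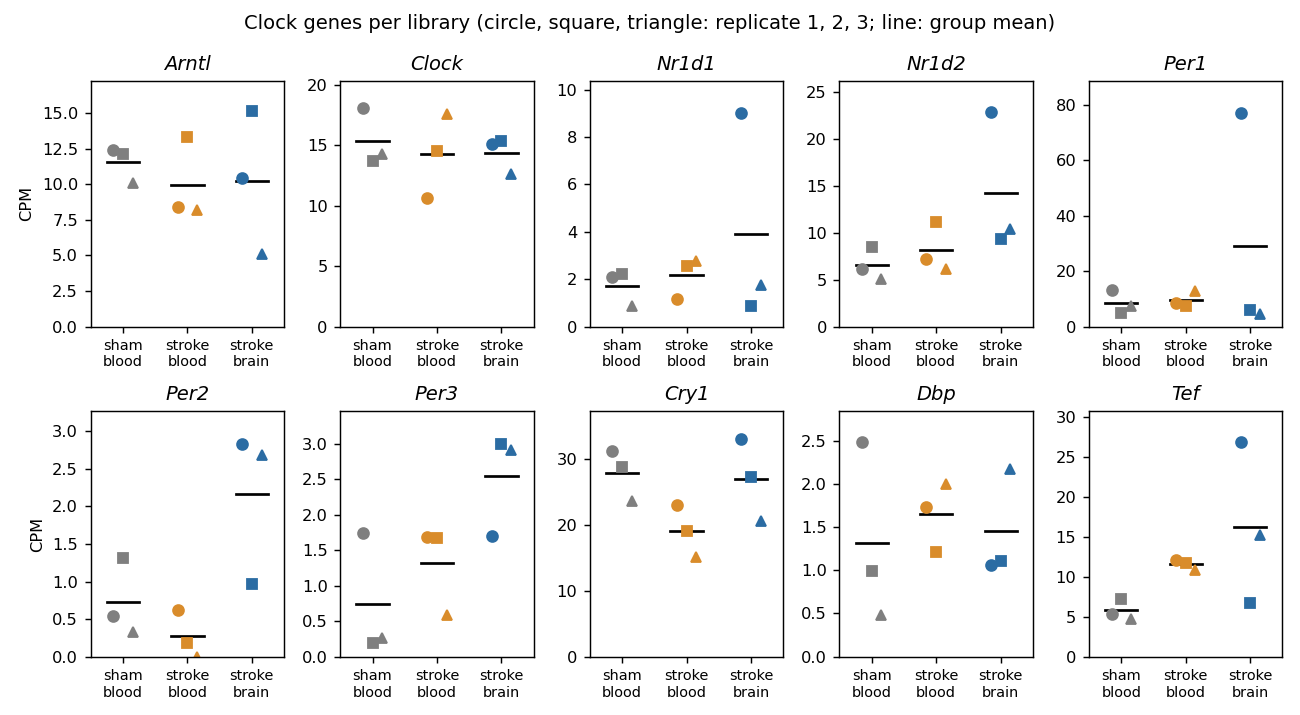
Level of each of the 10 clock genes in CPM (linear axes from 0, 1 panel per gene) in the 9 libraries, by group, with circles, squares and triangles for replicates 1, 2 and 3 and a line at the group mean. Brain replicate 1 stands above the other 8 libraries for Per1, at 76.9 CPM, and for Nr1d1, at 9.01 CPM, while Per2 and Per3 are higher in all 3 brain libraries than in stroke blood.

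The activator genes did not pass the test in any comparison. Arntl (ENSMUSG00000055116, chr7:113207465-113314126, plus strand) encodes BMAL1, without which the loop does not run. Its level was 8.44, 13.3 and 8.20 CPM in stroke blood replicates 1, 2 and 3, and 10.4, 15.2 and 5.14 CPM in the brain. The lowest and the highest of these 6 values were both from the brain, so the groups overlapped. The log2 fold change in brain against stroke blood was -0.11 with a 95% interval from -1.003 to 0.78 (SE 0.40, edgeR adjusted p = 0.854). Clock (ENSMUSG00000029238, chr5:76209868-76304792, minus strand), the partner of BMAL1, stood at 10.7, 14.6 and 17.6 CPM in stroke blood. In the brain its level was 15.1, 15.4 and 12.6 CPM, inside the range of stroke blood. Its log2 fold change was -0.15, with an interval from -0.73 to 0.43 (SE 0.26, edgeR adjusted p = 0.690). For both genes the sign of this small difference turned when counts were scaled by library size alone, to 0.040 for Arntl and 0.0094 for Clock.

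Among the repressor genes, Per2 was higher in the brain and Per3 was separated from stroke blood without passing the test. Per2 (ENSMUSG00000055866, chr1:91415982-91459324, minus strand), a PER protein gene of the negative limb, was counted at 0.627, 0.186 and 0 CPM in stroke blood, which were 13, 4 and 0 counts. The 0 counts in stroke blood replicate 3 allow a level of up to 0.162 CPM, taking 3 counts as the limit. In the brain Per2 stood at 2.83, 0.972 and 2.68 CPM, from 53, 22 and 58 counts. The lowest brain library was above the highest stroke blood library, although sham blood replicate 2, at 1.32 CPM, was above the lowest brain library. The log2 fold change against stroke blood was 2.80, with an interval from 0.68 to 4.93 (SE 0.94, edgeR adjusted p = 0.0495). When 1 library at a time was dropped, the call was lost in 5 of 6 fits, with adjusted p from 0.056 to 0.158 and the log2 fold change between 2.22 and 3.16, and was kept without stroke blood replicate 1, at a log2 fold change of 4.23 and an adjusted p of 0.0384. In these fits 19.7% to 30.1% of all genes tested were called, beside 30.6% with all libraries. With all libraries, the adjusted p of Per2 was 0.0181 under DESeq2, 0.0519 with RLE scaling and 0.0581 with upper-quartile scaling.

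Per3 (ENSMUSG00000028957, chr4:151003652-151044665, minus strand), the PER gene whose loss disturbs the rhythm least, was counted at 1.69, 1.67 and 0.594 CPM in stroke blood. In the brain it stood at 1.71, 3.01 and 2.91 CPM. Every brain library was above every stroke blood library, but brain replicate 1 was only just above the highest of them. Per3 had a log2 fold change of 0.80, with an interval from -0.41 to 2.01 (SE 0.54, edgeR adjusted p = 0.291). The Per3 counts were between 4 and 68 in the 9 libraries.

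Per1 (ENSMUSG00000020893, chr11:69095217-69109960, plus strand) had its highest value of the 9 libraries in a single brain library. It was counted at 8.59, 7.47 and 12.7 CPM in stroke blood. In the brain it was counted at 76.9, 6.10 and 4.49 CPM, from 1442, 138 and 97 counts. Brain replicate 1 was thus at 14.5 times the mean of the other brain libraries, which themselves lay below every stroke blood library. With all libraries the log2 fold change was 1.43 (SE 0.90, edgeR adjusted p = 0.259), and without brain replicate 1 it was -0.998 (SE 0.35, edgeR adjusted p = 0.0623). DESeq2 gave no adjusted p for Per1 in either brain comparison.

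Cry1 (ENSMUSG00000020038, chr10:85131700-85185064, minus strand) encodes a cryptochrome that blocks the BMAL1 and CLOCK pair. It was counted at 23.0, 19.2 and 15.2 CPM in stroke blood and at 33.0, 27.3 and 20.7 CPM in the brain. The lowest brain library fell between the stroke blood libraries. Its log2 fold change was 0.34, with an interval from -0.20 to 0.88 (SE 0.24, edgeR adjusted p = 0.307).

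The REV-ERB genes were, like Per1, highest in brain replicate 1. Nr1d1 (ENSMUSG00000020889, chr11:98767932-98775333, minus strand), which encodes REV-ERB alpha, was counted at 1.16, 2.55 and 2.75 CPM in stroke blood. In the brain it was counted at 9.01, 0.884 and 1.76 CPM, so that the group held both the highest and the lowest of the 6 values. Its log2 fold change was 0.68 (SE 0.79, edgeR adjusted p = 0.552) with all libraries and -0.85 (SE 0.62, edgeR adjusted p = 0.33) without brain replicate 1. Exons of Nr1d1 overlap those of Thra on the other strand, and the strand setting of the counting is not given, so that reads of the 2 genes may not be told apart. Thra had 47, 24 and 14 counts in the 3 brain libraries, and Nr1d1 had 169, 20 and 38.

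Nr1d2 (ENSMUSG00000021775, chr14:18204054-18239127, minus strand), which encodes REV-ERB beta, was counted at 7.19, 11.2 and 6.10 CPM in stroke blood. In the brain it was counted at 22.9, 9.28 and 10.4 CPM. Brain replicate 1 was at 2.32 times the mean of the other brain libraries, and these lay inside the range of stroke blood. Brain against stroke blood gave a log2 fold change of 0.64 (SE 0.39, edgeR adjusted p = 0.242), and 0.13 (SE 0.32, edgeR adjusted p = 0.787) without brain replicate 1.

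The output factor genes did not pass the test between brain and stroke blood. Dbp (ENSMUSG00000059824, chr7:45705088-45710203, plus strand), whose transcript cycles with one of the widest amplitudes in many tissues, was counted at 1.74, 1.21 and 2.00 CPM in stroke blood. In the brain it stood at 1.07, 1.11 and 2.17 CPM, on both sides of the stroke blood range. Dbp had a log2 fold change of -0.34 with an interval from -1.52 to 0.84 (SE 0.53, edgeR adjusted p = 0.662). Dbp shares exonic bases with Sphk2 on the other strand, and Sphk2 held 673 to 1376 counts per library against 9 to 51 for Dbp, so that the Dbp counts are uncertain.

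Tef (ENSMUSG00000022389, chr15:81802421-81826863, plus strand) was counted at 12.2, 11.7 and 10.9 CPM in stroke blood, the narrowest spread of any clock gene in any group, with the highest at 1.12 times the lowest. In the brain it stood at 26.9, 6.67 and 15.3 CPM, above and below all stroke blood libraries. Tef had a log2 fold change of 0.33 (SE 0.42, edgeR adjusted p = 0.586), and -0.22 (SE 0.35, edgeR adjusted p = 0.677) without brain replicate 1.

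Brain replicate 1 decided the direction of 3 clock genes in this comparison, Nr1d1, Per1 and Tef. It held the highest value of the 9 libraries for 6 of 10 clock genes (Nr1d1, Nr1d2, Per1, Per2, Cry1 and Tef), where 21% of all genes tested were highest in that library. For 3 of the 10 it was above 2 times the highest of the other 8 libraries, where 1.61% of all genes tested were: Per1 at 5.81 times, Nr1d1 at 3.27 times and Nr1d2 at 2.05 times. Arntl, Clock, Per3 and Dbp did not have their highest value there.

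**Figure D2:**
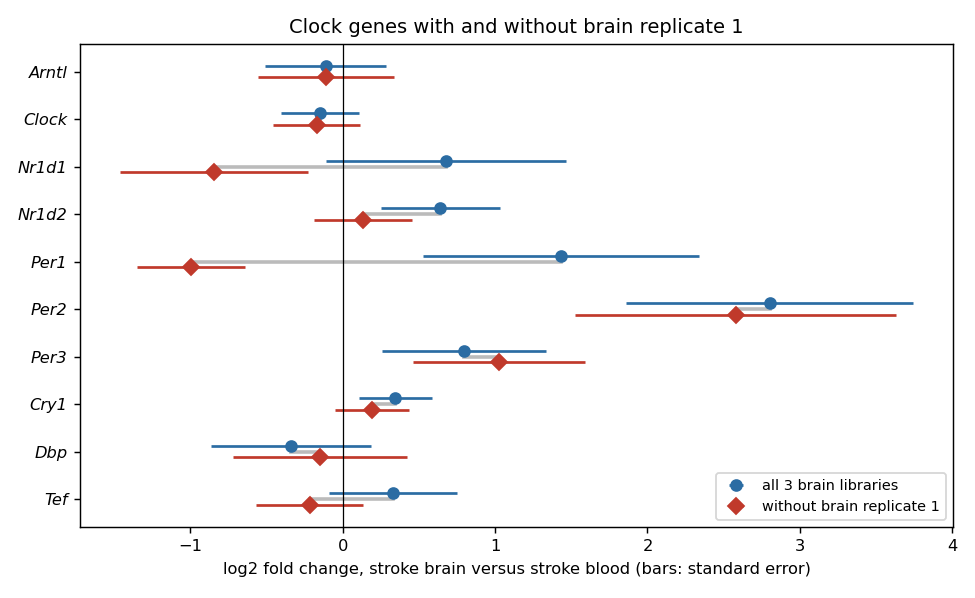
Log2 fold change of each clock gene in stroke brain against stroke blood, with all 3 brain libraries (blue circles) and without brain replicate 1 (red diamonds), bars giving the standard error. Per1 moves from 1.43 to -0.998 and Nr1d1 from 0.68 to -0.85, while Per2 stays at 2.80 and 2.58.

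Other measures of the same library were set beside these values. The summed level of 8 microglia markers, all 8 detected in the brain, was 1299, 1999 and 3709 CPM in brain replicates 1, 2 and 3, and 135 to 205 CPM in blood. The summed level of 8 T and NK cell markers was 626, 1207 and 1264 CPM. Both sums were thus lowest in brain replicate 1. Of the brain libraries, replicate 1 held the highest sum of 5 dendritic cell markers, at 877, 689 and 661 CPM. It also held the highest sum of 8 neural and choroid plexus markers, at 286, 158 and 169 CPM. The latter sum was 167 to 284 CPM in sham blood and 187 to 323 CPM in stroke blood. The sum of 10 immediate early genes, a class that Per1 also belongs to, was lowest in brain replicate 1, at 13028, 16794 and 17512 CPM. Of the 10, Fos (2019, 4246 and 4521 CPM), Jun, Egr1, Btg2 and Dusp1 were lowest of the brain libraries there, and Zfp36 lay between. Fosb (55.2, 14.9 and 18.5 CPM), Junb, Ier2 and Atf3 instead had their highest value of the 9 libraries there. The sum of 6 glucocorticoid-responsive genes was highest there, at 917, 687 and 722 CPM, through Sgk1 at 607, 371 and 389 CPM, and without Sgk1 the other 5 summed to 310, 316 and 334 CPM. Of these 5, Klf9 (36.6, 14.7 and 13.7 CPM) and Ddit4 (5.17, 1.41 and 1.20 CPM) were highest in brain replicate 1, and Fkbp5 (24.4, 30.5 and 36.2 CPM) and Tsc22d3 (241, 266 and 281 CPM) were lowest there. The part of each in the clock gene values was not tested. The hour of collection is not given, and its part, here and between groups, cannot be told apart from that of pool, tissue or stroke. In bulk libraries, fewer cells of a type and less RNA per cell cannot be told apart.

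Stroke blood and sham blood address what stroke does to the circulating cells. No clock gene passed the edgeR test, where 0.0079% of all 12664 genes tested did (1 gene). At an unadjusted p below 0.05 there were 2 clock genes, Tef and Cry1, where 12.5% of all genes tested were, and DESeq2 called 1, Tef, where it called 1.51% of the genes it gave an adjusted p. The median log2 fold change of the 10 clock genes was 0.28, beside -0.03 over all genes tested, and lay between -0.0042 (without sham blood replicate 3) and 0.42 with 1 library dropped at a time. Without overlap between libraries, Tef was higher and Cry1 was lower in stroke blood, 1 of 10 genes each way, where 8.23% of all genes tested were higher and 10.5% lower.

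Tef stood at 5.40, 7.28 and 4.76 CPM in sham blood, and its 3 stroke blood values, from 10.9 to 12.2 CPM, were all above these. The log2 fold change was 1.03 with an interval from 0.48 to 1.58 (SE 0.24, unadjusted p = 0.00211, edgeR adjusted p = 0.285). Leaving out 1 library at a time gave log2 fold changes from 0.90 to 1.21, and DESeq2 gave an adjusted p of 0.0333. Over all fits the adjusted p lay between 0.0333 and 0.707. Cry1 stood at 31.3, 28.8 and 23.7 CPM in sham blood, where the lowest library was only slightly above the 23.0 CPM of stroke blood replicate 1. Its log2 fold change was -0.51 with an interval from -0.99 to -0.04 (SE 0.21, unadjusted p = 0.0378, edgeR adjusted p = 0.381).

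The sham blood values of the other clock genes overlapped those of stroke blood. Arntl stood at 12.4, 12.2 and 10.1 CPM and Clock at 18.1, 13.7 and 14.2 CPM in sham blood. Nr1d1 stood at 2.09, 2.21 and 0.866 CPM and Nr1d2 at 6.13, 8.50 and 5.03 CPM. Per1 stood at 13.2, 4.98 and 7.25 CPM. The spread was wide for the least counted genes: Per2 stood at 0.535, 1.32 and 0.325 CPM. Per3 stood at 1.75, 0.188 and 0.271 CPM and Dbp at 2.48, 0.987 and 0.487 CPM, both highest in sham blood replicate 1. The log2 fold changes of these 8 genes lay between -1.35 for Per2 and 0.85 for Per3, with edgeR adjusted p from 0.58 to 0.927. Sham blood replicate 1 also had the lowest red cell and platelet marker levels of the blood libraries, 1221 CPM summed over 6 erythroid genes against 13766 to 34113 CPM, and 17.6 CPM over 6 platelet genes against 309 to 643 CPM. Their part in the Per3 and Dbp values was not tested.

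Brain was also compared with sham blood, which shares the brain libraries with the comparison above. No clock gene passed the edgeR test, where 19.8% of all 13020 genes tested did, 12.1% higher and 7.68% lower in the brain, and 13.4% with a log2 fold change beyond 1 as well. At an unadjusted p below 0.05 there were 2, Nr1d2 and Tef, where 34.3% of all genes tested were, and DESeq2 called 1, Tef, at an adjusted p of 0.0198, where it called 21% of the genes it gave an adjusted p. The median log2 fold change of the 10 clock genes was 1.01, beside 0.01 over all genes tested, but without brain replicate 1 it was -0.03, beside 0.0039. Without overlap, 1 of 10 clock genes was higher in the brain, Nr1d2, where 27.4% of all genes tested were, and none was lower, where 14.2% were. The log2 fold change of Nr1d2 was 0.99 with an interval from 0.08 to 1.89 (SE 0.39, edgeR adjusted p = 0.117), and 0.48 (SE 0.29, edgeR adjusted p = 0.287) without brain replicate 1. That of Tef was 1.36 with an interval from 0.28 to 2.44 (SE 0.47, edgeR adjusted p = 0.0797), and 0.81 (SE 0.40, edgeR adjusted p = 0.198) without brain replicate 1. Tef passed without brain replicate 2, the library in which it was lowest, at a log2 fold change of 1.72 and an adjusted p of 0.0261, and in a fit of all 9 libraries, at an adjusted p of 0.0384.

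The PER genes had the largest fitted differences from sham blood, with wide errors. The log2 fold change was 1.65 for Per3 (SE 0.82, edgeR adjusted p = 0.198), 1.63 for Per1 (SE 1.02, edgeR adjusted p = 0.296) and 1.44 for Per2 (SE 0.66, edgeR adjusted p = 0.166). Per3 passed without sham blood replicate 1, at 3.34 and an adjusted p of 0.0188. Per1 turned to -0.80 without brain replicate 1 (SE 0.46, edgeR adjusted p = 0.268), and Nr1d1 from 1.03 (SE 0.83, edgeR adjusted p = 0.422) to -0.49. Arntl (-0.29), Clock (-0.22), Cry1 (-0.17) and Dbp (0.01) had log2 fold changes with intervals that included 0 and edgeR adjusted p from 0.496 to 0.993.

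**Figure D3:**
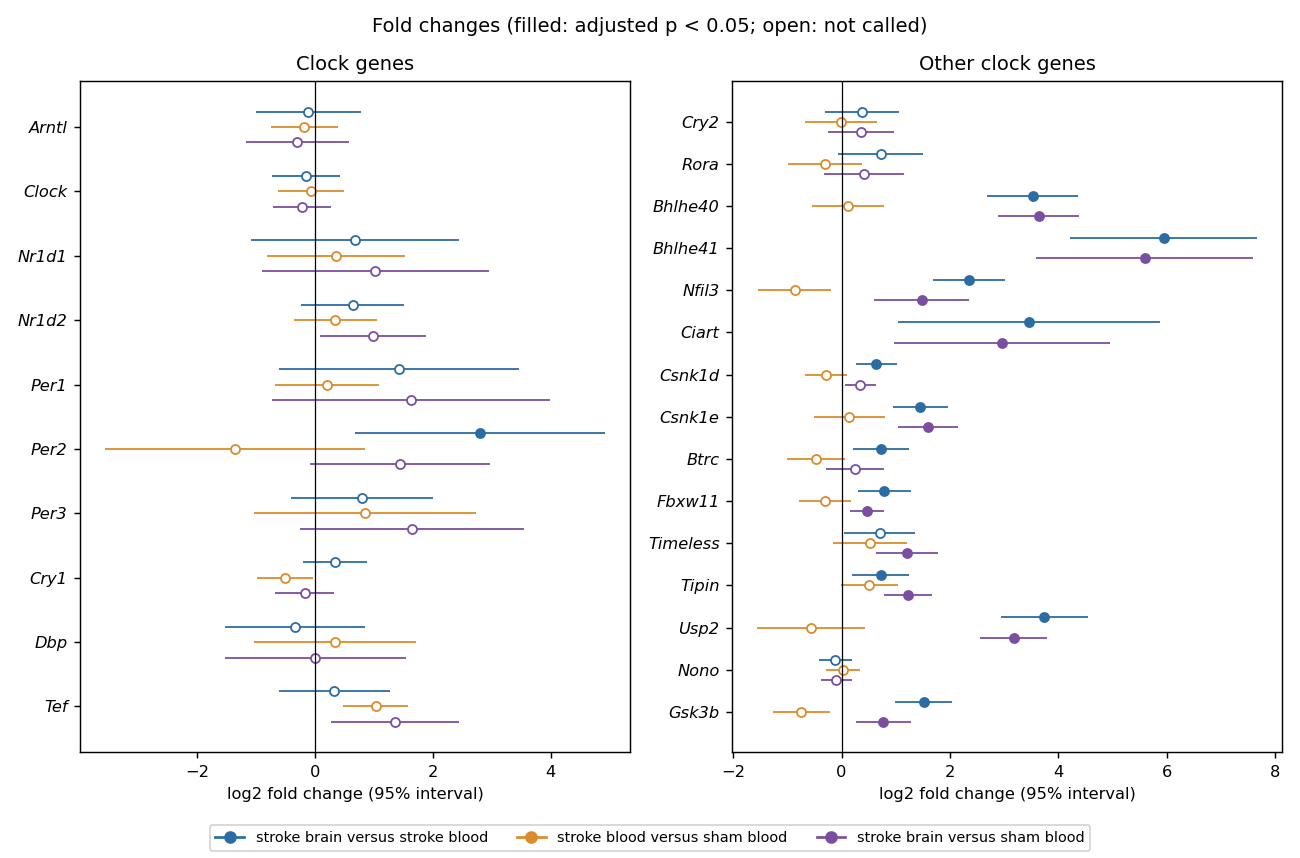
Log2 fold changes with 95% intervals (horizontal axis) of the 10 clock genes (left) and of further clock genes (right) in the 3 comparisons, filled where the adjusted p was below 0.05. Of the 10 clock genes, 1 symbol is filled, Per2 in brain against stroke blood, whereas 11 and 10 of the further genes are filled in the comparisons of brain with stroke blood and with sham blood, all higher in the brain.

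Further genes of the clock were taken as a list of 22. Among them were alternative activators and receptors, the cryptochrome gene Cry2, repressors outside the PER and CRY families, and Timeless, Tipin and Nono. The list also held kinases, ubiquitin ligase parts and proteases that set the life of clock proteins. Of the 22, 16 had enough counts for the brain comparisons and 14 for the blood comparison. The genes not tested in the brain comparisons had at most 14 counts in any library. In brain against stroke blood 11 of 16 were higher and none was lower by edgeR, where 17.5% of all genes tested were higher, and in brain against sham blood 10 of 16 were higher and none lower, where 12.1% were. The median log2 fold changes of the list were 0.76 and 0.99, beside 0.06 and 0.01 over all genes tested. Between stroke and sham blood edgeR called 0 of 14 and DESeq2 called 0, with 2 at an unadjusted p below 0.05 (Nfil3 and Gsk3b). Leaving out brain replicate 1 left 9 called higher against stroke blood, where 16.7% of all genes tested were (30.1% in either direction). Against sham blood it left 7 called higher, where 11.1% were (19.6% in either direction). The calls for Bhlhe40, Bhlhe41, Nfil3, Csnk1e, Usp2 and Gsk3b against stroke blood held in all 6 fits with 1 library dropped.

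Of the further genes, the repressor genes Bhlhe40, Bhlhe41, Nfil3 and Ciart were called higher in the brain. Bhlhe40 (ENSMUSG00000030103), which encodes DEC1, a repressor that competes with BMAL1 and CLOCK for E-boxes, stood at 36.4, 35.9 and 16.9 CPM in stroke blood and at 573, 302 and 267 CPM in the brain. Every brain library was above every blood library, and the gene rose by a log2 fold change of 3.53 (SE 0.37, edgeR adjusted p = 0.000225). Its relative Bhlhe41 (ENSMUSG00000030256), which encodes DEC2 and whose promoter stretch is printed above, stood at 0.289, 0.325 and 0.324 CPM in stroke blood, from 6, 7 and 6 counts. It reached 9.70, 9.33 and 46.2 CPM in the brain. That was a rise of 5.94 on the log2 scale (SE 0.77, edgeR adjusted p = 0.000602), and the value was highest in brain replicate 3, which also had the highest microglia marker sum, at 3709 CPM. The part of microglia in the Bhlhe41 level was not tested.

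Nfil3 (ENSMUSG00000056749), the D-box repressor that opposes Dbp and Tef, stood at 56.7, 50.9 and 71.6 CPM in stroke blood and at 504, 293 and 226 CPM in the brain. It rose by 2.35 on the log2 scale (SE 0.29, edgeR adjusted p = 0.000484). Against sham blood, where it stood at 63.5, 119 and 154 CPM, the log2 fold change was 1.48 (SE 0.38, edgeR adjusted p = 0.0312), and 1.10 (edgeR adjusted p = 0.0699) without brain replicate 1. Ciart (ENSMUSG00000038550), a repressor of BMAL1 and CLOCK with the 3 E-boxes shown above, stood at 0.482, 0 and 0.162 CPM in stroke blood and at 5.33, 2.12 and 0.648 CPM in the brain. The order of the brain libraries was that of Per1, with brain replicate 1 highest and replicate 3 lowest. Its log2 fold change was 3.46 (SE 1.08, edgeR adjusted p = 0.037), and 2.52 (SE 1.10, edgeR adjusted p = 0.116) without brain replicate 1. The call held in 2 of 6 such fits that each dropped 1 library.

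**Figure D4:**
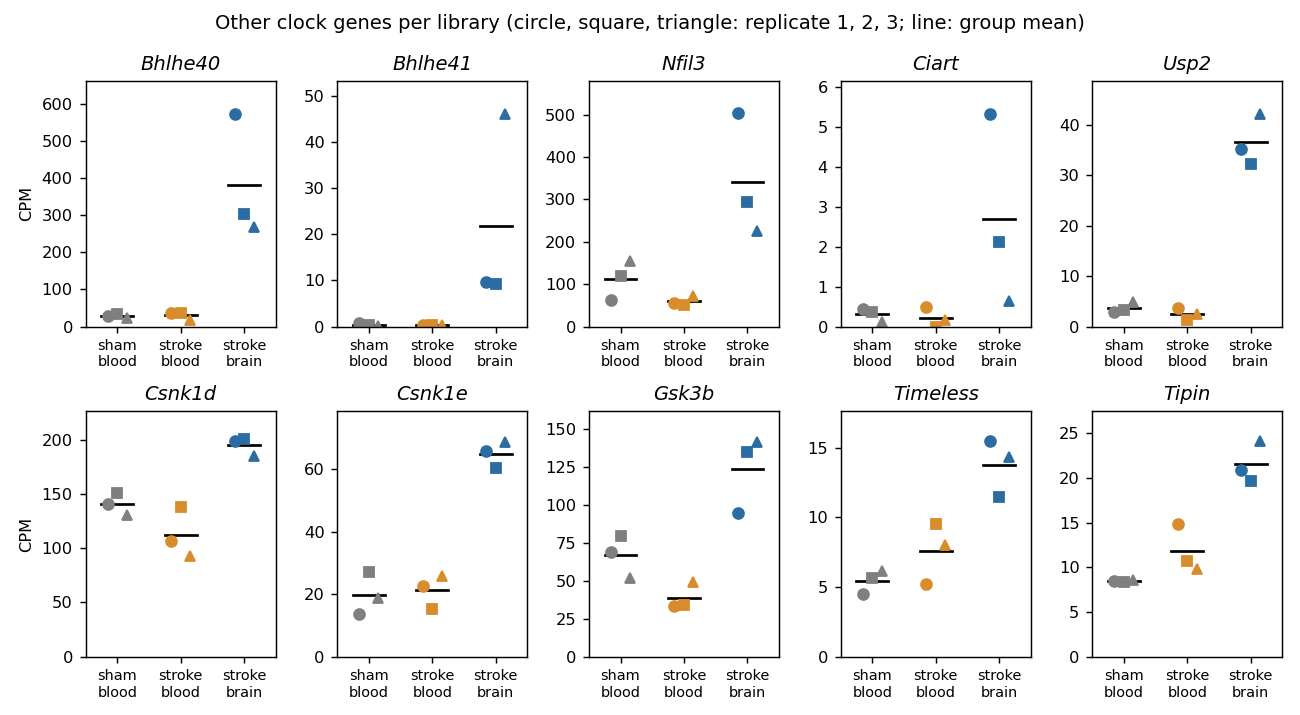
Level in CPM (linear axes from 0, 1 panel per gene) of 10 further clock genes in the 9 libraries by group, drawn as in the plot of the 10 clock genes. All 3 brain libraries lie above all 6 blood libraries in these panels, with Bhlhe40 at 267 to 573 CPM in the brain and 16.9 to 36.4 CPM in blood.

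Enzymes that act on clock proteins were also higher in the brain. Usp2 (ENSMUSG00000032010), a ubiquitin protease that acts on PER1, CRY1 and BMAL1, stood at 3.57, 1.30 and 2.48 CPM in stroke blood and at 35.2, 32.1 and 42.1 CPM in the brain. It rose by 3.74 on the log2 scale (SE 0.36, edgeR adjusted p = 0.00013), and by 3.18 against sham blood (SE 0.27, edgeR adjusted p = 0.000541). Csnk1e, a kinase that marks PER proteins for decay, rose by 1.46 (SE 0.22, edgeR adjusted p = 0.00149), and its relative Csnk1d by 0.64 (SE 0.17, edgeR adjusted p = 0.0189). Gsk3b, a kinase with several clock protein substrates, rose by 1.52 against stroke blood (SE 0.23, edgeR adjusted p = 0.00147) and by 0.77 against sham blood (SE 0.22, edgeR adjusted p = 0.0442). The ubiquitin ligase genes Btrc and Fbxw11, whose products bind phosphorylated PER, rose by 0.72 (edgeR adjusted p = 0.0398) and 0.79 (edgeR adjusted p = 0.0224) against stroke blood.

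Tipin, a partner of Timeless in DNA replication, rose by 0.72 against stroke blood (edgeR adjusted p = 0.0452) and by 1.22 against sham blood (edgeR adjusted p = 0.00578). Timeless had a log2 fold change of 0.70 against stroke blood (edgeR adjusted p = 0.1) and rose by 1.21 against sham blood (edgeR adjusted p = 0.0142). Cry2 and Rora did not pass either brain comparison, with log2 fold changes from 0.36 to 0.73, and Nono, a cofactor of PER, stood at 172 to 197 CPM in all 9 libraries. With 1 library dropped at a time, calls for genes of small change against stroke blood were often lost. They held in 2 of 6 fits for Csnk1d, 2 for Btrc, 3 for Fbxw11 and 1 for Tipin. The log2 fold changes of these genes lay between 0.51 and 0.98 in those fits. The share of all genes tested that was called also fell, from 30.6% to between 19.7% and 30.1%. Smaller groups and the part of single libraries were not told apart. Exons of Bhlhe40, Bhlhe41, Csnk1d, Csnk1e, Btrc, Timeless and Usp2 overlap genes on the other strand, which had at most 24 counts in any library.

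Levels of the 10 clock genes were ordered by CPM per kilobase of exon, the scale on which genes of unequal length can be set side by side. Cry1 was highest in every group, at 8.36 ± 1.15 (SD, n = 3) in sham blood, 5.72 ± 1.18 in stroke blood and 8.08 ± 1.85 in the brain. Below it in stroke blood came Per1, Nr1d2, Tef, Arntl and Clock, between 1.04 and 1.70, with SD ranges that overlapped between neighbours. The same 5 genes followed Cry1 in sham blood, where Tef, at 0.739 ± 0.167, lay below Clock, at 1.12 ± 0.174. In the brain Per1 was the next after Cry1 at 5.18 ± 7.34, an SD above the mean, because brain replicate 1 held 13.7 per kilobase and replicates 2 and 3 held 1.08 and 0.797. Dbp, Per2 and Per3 were the lowest in all groups. Per3 was the lowest in sham blood at 0.0767 ± 0.0916 and in the brain at 0.265 ± 0.0755, and Per2 the lowest in stroke blood at 0.0463 ± 0.055, and the SD ranges of these 2 genes overlapped in every group.

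The libraries held 18475118 to 22623578 counts each. Monocyte/macrophage markers were detected in every group, 8 of 8 above 3 counts in a library, with summed levels of 89454 to 125352 CPM in sham blood, 98193 to 109317 in stroke blood and 46822 to 52216 in the brain, where 1 was called higher and 4 lower than in stroke blood. Microglia markers were higher in the brain for 8 of 8 genes, and in stroke blood Sall1, Siglech and Olfml3 stayed at 3 counts or fewer. Against stroke blood, edgeR called 4 of 6 neutrophil markers higher and 1 lower, 4 of 5 dendritic cell markers higher, 2 of 8 T and NK cell markers higher, 0 of 4 B cell markers, 5 of 6 platelet and 6 of 6 erythroid markers lower, and of 3 neural and choroid plexus markers 1 higher and 1 lower. The neuron markers Syt1 and Rbfox3 and the astrocyte marker Aqp4 stayed at 3 counts or fewer in all groups. The neuron marker Snap25, the astrocyte marker Gfap and the choroid plexus marker Ttr were above 3 counts in a brain library. Gfap was also above 3 counts in a sham blood library, and Snap25 and Ttr were not above 3 counts in blood. Ttr had a log2 fold change of 12.95 against stroke blood (SE 1.33, edgeR adjusted p = 0.000496). Of the 10 immediate early genes 8 were called higher in the brain than in stroke blood, and of the 6 glucocorticoid-responsive genes 3 were higher and 1 was lower. The part of these cells and gene classes in the clock gene differences was not tested. Of all genes called between brain and stroke blood, 57.2% were higher in the brain, which became 69.2% with library size alone and 45.5% with upper-quartile scaling, settings that moved the median log2 fold change of all genes by 0.154 and -0.148. The calls for Bhlhe40, Bhlhe41, Nfil3, Ciart, Csnk1d, Csnk1e, Fbxw11, Usp2 and Gsk3b against stroke blood held under both.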

How the data were processed

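The deposited files hold raw read counts per gene, which the authors made by mapping paired-end SMART-Seq HT reads to GRCm38 with HISAT2 and counting them with HTSeq; versions, annotation release and strand setting are not given in the sources used here. Gene positions and exon lengths were taken from GENCODE M21, where 52105 of the 53801 identifiers had the coordinates of the files. Each comparison was fitted on its own 6 libraries in edgeR 4.0.16 (R 4.3.3), with TMM scaling, the default filter on low counts and Benjamini-Hochberg adjustment over all genes tested. DESeq2 1.42.0 was the alternative tool. CPM are counts per 1000000 of the library total. The procedure was tested on simulated data. At a simulated log2 fold change of 1 in either direction it called 24 of 98 changed genes for brain against stroke blood. It called 17 of 100 for stroke against sham blood and 17 of 98 for brain against sham blood. At a log2 fold change of 2 it called 70 of 96, 71 of 94 and 71 of 97. Most genes changed 2-fold were thus missed. Within each group the libraries differed beyond counting error, and none was treated as a duplicate.

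The genes named were the 10 clock genes and, of 22 further clock genes, those called in a comparison; Cry2, Rora and Nono are named besides, and some genes of the list are counted but not reported here by name. The members and all lists (immediate early, glucocorticoid-responsive and cell type markers) were chosen with earlier results of these data known. Libraries were amplified by PCR without molecular identifiers, and the limit of 3 counts covers counting error only. The intervals of the log2 fold changes also take in the spread between libraries. The labels do not say that equal replicate numbers mark shared animals. Alternatives of scaling, filter, tool, left-out library and replicate block are given at the end.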

Additional observations from a re-analysis of the deposited data

How the results depend on the processing

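The call of Per2, the only clock gene called in brain against stroke blood (count 1), was lost, giving a count of 0, with RLE scaling (adjusted p = 0.0519), upper-quartile scaling (adjusted p = 0.0581), the threshold of 0.01 and the filter at a mean of 50 counts, which removed the gene. Fits that left out 1 library gave 0 to 1. With the replicate number as a block, the replicate block gave 0 clock genes called (Per2 at a log2 fold change of 3.06, adjusted p = 0.0501) and 9 further clock genes. Same-numbered libraries correlated in their deviations at -0.0759 to 0.0839. These values cannot decide whether the numbers mark shared mice, since a blood library held 1 mouse and a brain library a pool. For further clock genes the count of 11 became 6 at 0.01, 7 with an added log2 fold change above 1, and 6 to 9 without 1 library (6 without stroke blood replicate 3 or brain replicate 2). Against sham blood the count of 0 clock genes became 1 with DESeq2 and 1 with all 9 libraries (Tef in each), and 0 to 1 without 1 library; the count of 10 further genes became 5 at 0.01 and 6 to 8 without 1 library (6 without sham blood replicate 1, sham blood replicate 2 or brain replicate 2). In stroke against sham blood the count of 0 became 1 with DESeq2 (Tef). The cause of these changes was not tested, apart from the removed gene. The counts for further clock genes, and the medians without single libraries, were alternatives chosen after seeing the data.

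Signs turned only for genes that were not called. With library size alone these were Arntl (0.040) and Clock (0.0094) in brain against stroke blood, and with upper-quartile scaling Clock in blood (0.0032). Dbp in brain against sham blood turned without the filter (-0.0013), with RLE (-0.0044) and with upper-quartile scaling (-0.068). Without 1 library, log2 fold changes in brain against stroke blood ranged from -0.51 to 0.21 for Arntl, -0.36 to 0.025 for Clock, -0.85 to 1.15 for Nr1d1, -0.998 to 1.95 for Per1 and -0.22 to 0.71 for Tef. In blood they ranged from -0.27 to 0.093 for Clock, -0.076 to 0.70 for Per1 and -0.048 to 1.20 for Dbp. In brain against sham blood they ranged from -0.71 to 0.024 for Arntl, -0.49 to 1.49 for Nr1d1, -0.80 to 2.13 for Per1 and -0.41 to 0.86 for Dbp. Counts under 100 per library limited Per2, Per3, Dbp and, apart from brain replicate 1, Nr1d1.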
